A study of Mus musculus with 15 samples.

Results

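The genes described here are 8 that write, erase or read DNA methylation: the methyltransferases Dnmt1, Dnmt3a and Dnmt3b, the 5-methylcytosine dioxygenases Tet1, Tet2 and Tet3, and the methyl-CpG binding proteins Mbd1 and Mbd2. They were taken by gene symbol from the 15 deposited count files, and these 8 genes are 8 of 26263 genes with a name in those files. The study measured RNA in mouse neural stem and progenitor cells, cultured as neurospheres from the dorsal telencephalon of day 12.5 embryos in medium with EGF and FGF, to see how loss and gain of the histone acetyltransferase gene Kat6b alter expression. The first pair of groups was on a C57Bl/6 background: wild type (called WT_B6, 3 libraries) and Kat6b knockout (KO_B6, 4 libraries). The second pair was on mixed FVBxBALB/c stock: wild type (WT_FvB, 2 libraries) and Kat6b transgenic (Tg_FvB, 6 libraries), bred this way because the transgenic mice did not survive on an inbred one. The transgene and the knockout were thus each compared with wild-type cells of their own background, and the background and the cultures of the pairs differ together. The labels number the litter and embryo of every library but do not say which part of Kat6b the knockout lacks or what drives the transgene. The cells are cultures, and p-values measure the spread between libraries, each counted as a separate culture. In both wild-type groups all libraries were near-identical, as given below, so the spread among wild-type cultures was little sampled.

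Methylation of cytosine in CpG pairs is copied onto the new strand after DNA replication by Dnmt1, the maintenance methyltransferase, which is recruited by Uhrf1. Dnmt3a and Dnmt3b methylate unmodified CpGs; Dnmt3a is the de novo enzyme best known from the postnatal brain, while Dnmt3b is highest in early embryonic cells. The TET dioxygenases oxidise 5-methylcytosine to 5-hydroxymethylcytosine and further products that base excision repair can remove, and the methyl-CpG binding domain proteins bind methylated DNA and recruit repressors, Mbd2 as part of the NuRD complex.

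Promoter sequence was read from RefSeq windows of 300 bases (250 before and 50 after an annotated start, GRCm38.p6) with 10 windows for 6 of the 8 genes; those of Mbd1 and Mbd2 were not used here. The 3 windows shown belong to Dnmt1, Dnmt3a and Tet2, the genes that passed the test in the knockout, and capitals mark a searched motif.
Dnmt1, chr9:20952574-20952873, minus strand: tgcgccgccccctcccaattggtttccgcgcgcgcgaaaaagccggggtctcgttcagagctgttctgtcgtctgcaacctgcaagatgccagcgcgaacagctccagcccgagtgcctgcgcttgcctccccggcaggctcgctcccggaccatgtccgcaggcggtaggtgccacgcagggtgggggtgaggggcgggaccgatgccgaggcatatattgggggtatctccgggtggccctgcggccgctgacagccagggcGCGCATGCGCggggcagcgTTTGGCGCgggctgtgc
Dnmt3a, chr12:3891494-3891793, plus strand: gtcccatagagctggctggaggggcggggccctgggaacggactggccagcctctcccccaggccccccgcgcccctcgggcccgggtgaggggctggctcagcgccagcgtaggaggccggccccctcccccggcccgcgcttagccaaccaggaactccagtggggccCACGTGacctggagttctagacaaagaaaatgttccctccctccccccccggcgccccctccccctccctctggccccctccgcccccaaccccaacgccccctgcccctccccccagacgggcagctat
Tet2, chr3:133544341-133544640, minus strand: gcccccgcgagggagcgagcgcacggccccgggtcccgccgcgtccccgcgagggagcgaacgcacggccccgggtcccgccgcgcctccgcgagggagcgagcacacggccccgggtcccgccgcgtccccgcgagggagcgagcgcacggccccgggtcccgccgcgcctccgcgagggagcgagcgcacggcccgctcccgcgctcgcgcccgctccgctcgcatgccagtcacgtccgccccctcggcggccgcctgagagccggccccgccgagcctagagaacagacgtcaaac
The motifs searched on both strands were the E2F forms TTTGGCGC and TTTCCCGC, the NRF1 core GCATGCGC and the E-box CACGTG. The Dnmt1 window holds GCATGCGC on both strands, starting at bases 265 and 267 and overlapping each other, and TTTGGCGC at base 284, apart from them. Of 32851 windows of this length, 2.71% hold GCATGCGC, 0.514% hold TTTGGCGC and 1.07% hold TTTCCCGC. The Dnmt3a window, one of 3 for that gene, holds CACGTG at base 171, as do 7.15% of all windows. The Tet2 window holds 57 CpG pairs and none of the 4 motifs, and 99.8% of windows have fewer CpG pairs. The Dnmt1 window shown has 33 CpG pairs and is one of 3 for that gene, whose others have 12 and 2. The Dnmt1 window with 12 also holds GCATGCGC on both strands, at bases 280 and 282, and the one with 2 holds none of the 4 motifs. The Dnmt3a window shown has 18 and was chosen for its motif, and the other 2 of that gene have 46 and 47. The median over all windows was 7. These matches describe the letters only.

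Some libraries stood apart or had labels at odds with each other. Total counts over named genes ran from 12336303 to 62819028, and each KO_B6 library (39413502 or more) was deeper than each WT_B6 library (31067022 or fewer). Titles of the Tg_FvB libraries read knockout while their genotype field reads transgenic, and the count columns of Tg_FvB 5 and 6 carry wild-type names. Kat6b RNA was high in all of them: it was 140 to 289 CPM (counts as a rate per library total, scaled by TMM factors) over the 6 Tg_FvB libraries and 51.8 to 54.4 in WT_FvB, a 4.57-fold rise (edgeR quasi-likelihood test, adjusted p = 0.000238), close to the 4.5-fold in the series' design. In KO_B6, Kat6b was 60.9 to 66.1 CPM against 83.5 to 85.1, a log2 fold change of -0.41 that did not pass (adjusted p = 0.0571). On the first principal component (47.9% of variance) Tg_FvB 5 and 6 lay at 3.94 and 4.81, between the other FVB/BALB/c libraries (33.85 or higher) and the C57Bl/6 libraries (all below 0). Several libraries were near-identical: all 3 of WT_B6, KO_B6 2 and 3, both of WT_FvB, and Tg_FvB 1, 2 and 3 had pairwise biological coefficients of variation of 0.0172 to 0.0503, where other pairs of the same group had 0.115 or more. The main test counts them as separate cultures, and values with each such set summed into 1 library stand beside the calls of the 8 genes and of the gene lists in the knockout. Neural stem markers summed to 7060 to 10300 CPM and the dorsal gene Emx2 was 29 to 66 CPM, but the dorsal markers Emx1, Tbr1 and Eomes were at most 0.128, 0.317 and 0.419 CPM. Microglial, endothelial and mesenchymal marker lists summed to at most 0.456, 2.61 and 4.66 CPM. Other neural lineages were not absent: oligodendrocyte markers summed to 2160 to 3410 CPM and astrocyte markers to 997 to 2880 CPM. Neuron markers summed to 878 to 1170 CPM, with Map2 alone at 845 to 1130 CPM.

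Per kilobase of exonic length, Dnmt1 was the highest of the 8 genes and Dnmt3b the lowest in each of the 4 groups. In WT_B6, Dnmt1 reached 40 ± 0.632 CPM per kb (mean ± SD, n = 3) and was followed by Mbd2 at 26.7 ± 1.03, Dnmt3a at 18.1 ± 0.710, Mbd1 at 15 ± 0.396 and Tet3 at 13.5 ± 0.444. Tet1 at 5.97 ± 0.233 and Tet2 at 5.67 ± 0.159 had overlapping ranges, and Dnmt3b stood at 0.884 ± 0.109 CPM per kb. The order shifted between groups through Dnmt3a. It was the third gene in WT_B6 and the fifth in WT_FvB, where its 11.6 ± 0.306 CPM per kb (n = 2) lay below Mbd1 at 15.6 ± 0.203 and Tet3 at 13.3 ± 0.239. In KO_B6 the ranges of Dnmt3a (13.0 to 15.5), Mbd1 (14.3 to 16) and Tet3 (9.07 to 13.4 CPM per kb) met or overlapped their neighbour's. Those ranges do not resolve the places in the order, although within each KO_B6 library Dnmt3a lay above Tet3. In Tg_FvB the ranges of Dnmt3a (11.6 to 15.4) and its neighbours Mbd1 (15 to 17.6) and Tet3 (8.34 to 13.3) also overlapped. These levels use the deposited exonic length, which sums all annotated exons and understates a gene that uses only some of them.

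**Figure D1:**
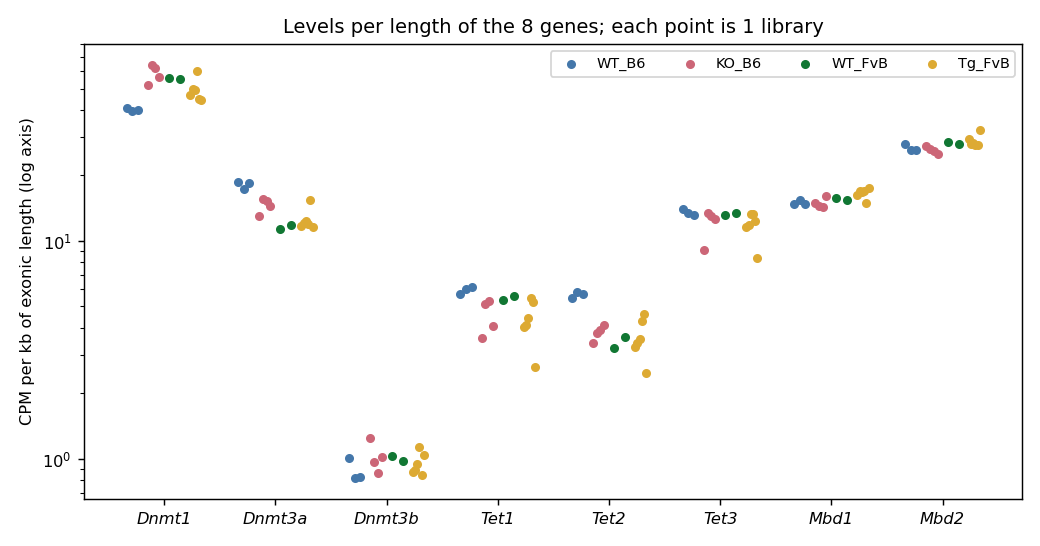
Level of each of the 8 genes in CPM per kilobase of exonic length (vertical log axis), 1 point per library, coloured by group. Dnmt1 lies highest and Dnmt3b, near 1 CPM per kb, lowest in every group.

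Dnmt3l, the catalytically inactive partner of the de novo enzymes, gives the lower end of what these libraries resolve. It had 0 counts in 13 libraries and 1 and 2 counts in KO_B6 1 and 4, and was not tested. A floor of 3 counts corresponds to 0.0479 to 0.237 CPM, depending on the library, and covers counting error only. Dnmt3b, at 3.52 to 5.39 CPM, was therefore low but measured in every library.

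In Kat6b knockout cells, Dnmt1 was higher and Dnmt3a and Tet2 were lower than in C57Bl/6 wild-type cells, while Mbd1 and Mbd2 hardly moved. Of the 8 genes, 1 rose and 2 fell by edgeR's test at adjusted p under 0.05, where 24.8% of the 15261 genes tested rose and 20.9% fell (45.8% in all). A share of 3 in 8 is thus near the background of this comparison. The median log2 fold change of the 8 genes was -0.10, and of all genes tested 0.02. DESeq2 also called 1 higher and 2 lower. In bulk RNA, fewer cells of a type and less RNA per cell cannot be told apart. With near-identical libraries summed, 0 of the 8 passed in edgeR (1 at unadjusted p under 0.05), and 5 genes of all passed.

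Dnmt1, the maintenance enzyme (Entrez gene 13433, GRCm38 chr9:20907209-20959888, minus strand), stood at 257, 249 and 251 CPM in WT_B6 and at 329, 406, 390 and 358 CPM in KO_B6. Every knockout library lay above every wild-type one. The rise was 1.47-fold (log2 0.56, SE 0.096, 95% interval 0.35 to 0.76, edgeR adjusted p = 0.000332). With near-identical libraries summed the log2 change was 0.49 and no longer passed (adjusted p = 0.2). The KO_B6 libraries differed among themselves more than the WT_B6 ones: library 1 was lowest and the near-identical libraries 2 and 3 were the highest. All 23 genes of a DNA replication list rose in the same comparison, and their part in this result was not tested.

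Dnmt3a (Entrez 13435, chr12:3806007-3914443, plus strand) moved the other way. Its level was 183, 170.5 and 182.5 CPM in WT_B6 and 128, 153, 150 and 142 CPM in KO_B6, with no overlap. The log2 change was -0.32 (SE 0.089, interval -0.51 to -0.12, adjusted p = 0.00962 in edgeR), or 0.804 of the wild-type level, and with near-identical libraries summed it was -0.38 and did not pass (adjusted p = 0.244). Dnmt3b (Entrez 13436, chr2:153649450-153687730, plus strand) was 4.36, 3.52 and 3.58 CPM in WT_B6 and 5.39, 4.17, 3.70 and 4.38 CPM in KO_B6. Those ranges overlapped, and the log2 difference of 0.21 did not pass (adjusted p = 0.264, interval -0.11 to 0.54). The ratio of Dnmt3a to Dnmt3b per kb had a median of 21.3 in WT_B6 and 15.2 in KO_B6, and the ratio of Dnmt1 to Dnmt3a per kb one of 2.2 (2.15 to 2.28) and 4.03 (3.93 to 4.14). Dnmt3b shares 93.9% identity over 1434 bases with Dnmt3c, a rodent copy expressed in male germ cells that has no row of its own in the count files, so Dnmt3b counts may include reads of it. No other of the 8 genes had a copy of 90% identity over 200 bases.

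Of the erasers, Tet2 fell. Tet2 (Entrez 214133, chr3:133463679-133545139, minus strand), the TET enzyme that lacks a CXXC domain, was 50.4, 53.2 and 52.5 CPM in WT_B6 and 31.1, 34.6, 35.7 and 37.8 CPM in KO_B6. Every knockout library was below every wild-type one. The log2 change was -0.58 (SE 0.15, interval -0.90 to -0.26, edgeR adjusted p = 0.00543), 0.668 of the wild-type level, and with near-identical libraries summed it was -0.63 and did not pass (adjusted p = 0.234).

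Tet1 (Entrez 52463, chr10:62804570-62908996, minus strand), which carries a CXXC domain, was 80.5, 85.1 and 86.8 CPM in WT_B6 and 50.3, 72.1, 74.9 and 57.5 CPM in KO_B6. All 4 knockout libraries were below the wild type, as for Dnmt1 (in the other direction), Dnmt3a and Tet2; the groups did not overlap for 4 of the 8 genes and for 56.2% of all genes tested. The log2 difference of -0.40 (SE 0.19, interval -0.80 to 0) missed the threshold (adjusted p = 0.0932), and it passed in 4 of 23 other settings, among them the fit without Tg_FvB 6 (adjusted p = 0.0142). Tet3 (Entrez 194388, chr6:83362373-83459084, minus strand), the most abundant TET transcript per kb here, was 153, 146 and 143 CPM in WT_B6 and 99, 146, 142 and 138 CPM in KO_B6. KO_B6 1 was far below the other 3, which reached into the wild-type range, and the log2 difference of -0.17 did not pass (adjusted p = 0.362). Tet2 made up 22.9% of the TET sum per kb in WT_B6 (median) and 18.6% in KO_B6, and Tet3 53.0% and 59.3%.

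The readers differed least. Mbd1 (Entrez 17190, chr18:74267605-74282732, plus strand) was 39.4 to 41.3 CPM in WT_B6 and 38.1 to 42.9 CPM in KO_B6, a log2 difference of -0.01 with an interval of -0.14 to 0.12 (edgeR adjusted p = 0.929). Mbd2 (Entrez 17191, chr18:70568189-70626131, plus strand) was 48.2 to 51.6 CPM in WT_B6 and 46.4 to 50.6 CPM in KO_B6, a log2 difference of -0.03 with an interval of -0.16 to 0.10 (edgeR adjusted p = 0.734). Both pairs of ranges overlapped, and neither 95% interval reached a log2 change beyond 0.16 in size.

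**Figure D2:**
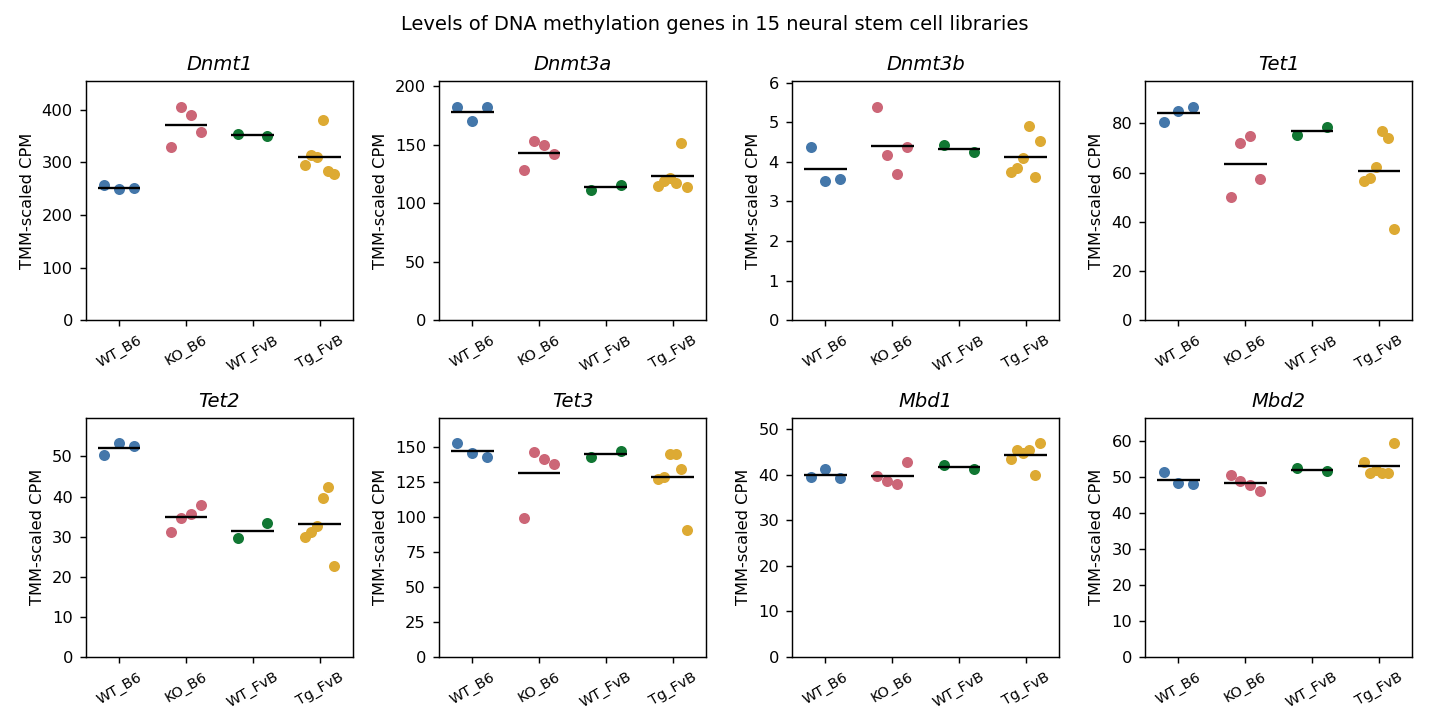
CPM (TMM-scaled, vertical axes from 0) of the 8 genes in each library, grouped by genotype and background, with a bar at the group mean. WT_B6 stands apart from KO_B6 for Dnmt1, Dnmt3a, Tet1 and Tet2, and KO_B6 1 and Tg_FvB 6 are the lowest of their groups for all 3 Tet genes.

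All 3 TET genes were low together in 2 libraries. In KO_B6 1, Tet1, Tet2 and Tet3 deviated from the group's median by -0.35, -0.17 and -0.49 on the log2 scale, and in Tg_FvB 6 they lay at -0.69, -0.48 and -0.53. In KO_B6 4 they did not move together (-0.16, 0.10 and -0.02). Both libraries were also low for long transcripts in general: other genes of 8 kb or longer had median deviations of -0.26 and -0.24, and genes of 1 to 3 kb of 0.02 and 0.06. The exonic lengths are 14.1 kb for Tet1, 10.9 for Tet3, 9.18 for Tet2 and 9.85 for Dnmt3a, against 6.30 for Dnmt1, 4.32 for Dnmt3b, 2.67 for Mbd1 and 1.85 for Mbd2. Dnmt3a, longer than Tet2, deviated by -0.19 in KO_B6 1 and by -0.05 in Tg_FvB 6. Between KO_B6 and WT_B6 the median log2 change was -0.06 over 561 genes of 8 kb or longer and 0.05 over 4686 genes of 1 to 3 kb. Length classes were chosen after the values were seen, and the part of length in the TET differences was not tested. Across all 15 libraries Tet1 and Tet3 had a Pearson correlation of 0.88, Tet1 and Tet2 of 0.79, and Dnmt3a and Tet2 of 0.85, as descriptions over libraries that share groups and near-identical pairs.

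**Figure D3:**
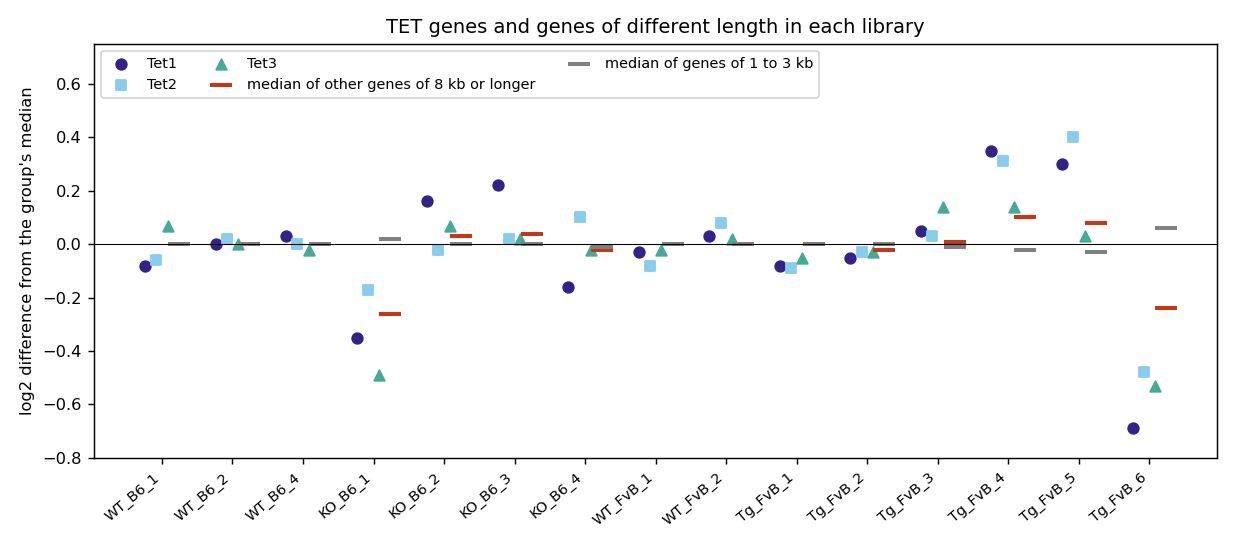
Deviation of Tet1, Tet2 and Tet3 from the median of their group in each library (vertical axis, log2), with the median deviation of other genes of 8 kb or longer and of genes of 1 to 3 kb as bars. KO_B6 1 and Tg_FvB 6 are below 0 for all 3 Tet genes and for long genes.

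In the Kat6b transgenic cells none of the 8 genes differed from their wild type by the test. edgeR called 0 of 8 at adjusted p under 0.05 and 0 of 8 at unadjusted p under 0.05, DESeq2 also called 0, and 1.85% of all genes tested were called (0.688% higher, 1.17% lower). At unadjusted p under 0.05 edgeR had 2793 of the 15261 genes tested. The 2 libraries of WT_FvB were near-identical, so the spread among wild-type cultures was little sampled. All 8 genes overlapped between the groups, while 16% of all genes tested did not.

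Dnmt1 was 353 and 350 CPM in WT_FvB and ran from 278 (lowest) through 303 (median) to 380 CPM (highest) in Tg_FvB. Tg_FvB 4, the shallowest library, was above the wild type and the other 5 transgenic libraries below it. The log2 difference was -0.18 (interval -0.40 to 0.03, edgeR adjusted p = 0.347), and without Tg_FvB 4 it was -0.25 and passed (adjusted p = 0.0435). Dnmt3a was 112 and 116 CPM in WT_FvB and 114, 118 and 152 CPM (lowest, median, highest) in Tg_FvB, where library 5 was far above the other 5 libraries. The log2 difference was 0.11 (adjusted p = 0.558, edgeR). Dnmt3b was 4.43 and 4.24 CPM against 3.63, 3.96 and 4.91 (log2 -0.08, adjusted p = 0.83).

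Among the erasers, Tet1 was 75.3 and 78.5 CPM in WT_FvB and 37.2, 60.1 and 76.9 CPM (lowest, median, highest) in Tg_FvB. Tg_FvB 4 and 5 were near the wild type and library 6 far below it, and the log2 difference was -0.34 (interval -0.77 to 0.08, edgeR adjusted p = 0.375). Tet2 was 29.6 and 33.4 CPM against 22.8, 31.9 and 42.4 CPM, spread on both sides of the wild type (log2 0.06, adjusted p = 0.873). Tet3 was 143 and 147 CPM against 91.0, 132 and 145 CPM (log2 -0.18, adjusted p = 0.557). Mbd1 was 42.1 and 41.4 CPM against 40, 45.1 and 46.9 CPM, with 5 of 6 transgenic libraries above the wild type (log2 0.09, interval -0.06 to 0.23, adjusted p = 0.508). Mbd2 was 52.6 and 51.7 CPM against 51.1, 51.7 and 59.5 CPM (log2 0.03, interval -0.11 to 0.17, adjusted p = 0.831). The intervals for the readers were narrow, while those of Tet1 and of Tet3 (-0.50 to 0.15) include the -0.40 seen for Tet1 in the knockout and that of Tet2 ran from -0.29 to 0.42. A p above the threshold therefore does not show that the TET genes were alike in the 2 groups.

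The knockout and transgene effects themselves differed for Dnmt1, Dnmt3a and Tet2. The difference of the log2 changes (knockout minus transgene) was 0.74 for Dnmt1 (SE 0.14, interval 0.44 to 1.03, edgeR adjusted p = 0.00122), -0.43 for Dnmt3a (SE 0.13, interval -0.71 to -0.15, adjusted p = 0.0201) and -0.64 for Tet2 (SE 0.23, interval -1.12 to -0.16, adjusted p = 0.0361). For the other 5 genes the difference did not pass, and it was -0.06 for Tet1 and 0.01 for Tet3. Of the 8 genes, 1 passed upward and 2 downward, and of all genes tested 19.5% and 17.8% did (37.3% in all). The call for Dnmt3a was lost without WT_FvB 1 (adjusted p = 0.0804) or WT_FvB 2 (0.0505), and that for Tet2 without any single WT_B6 library, KO_B6 1, KO_B6 2, WT_FvB 1 or WT_FvB 2 (adjusted p 0.0518 to 0.147). With near-identical libraries summed, 0 of the 8 passed (1 at unadjusted p under 0.05). The knockout effect is set against C57Bl/6 cells and the transgene effect against FVB/BALB/c cells, so genotype and background cannot be told apart in this difference.

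**Figure D4:**
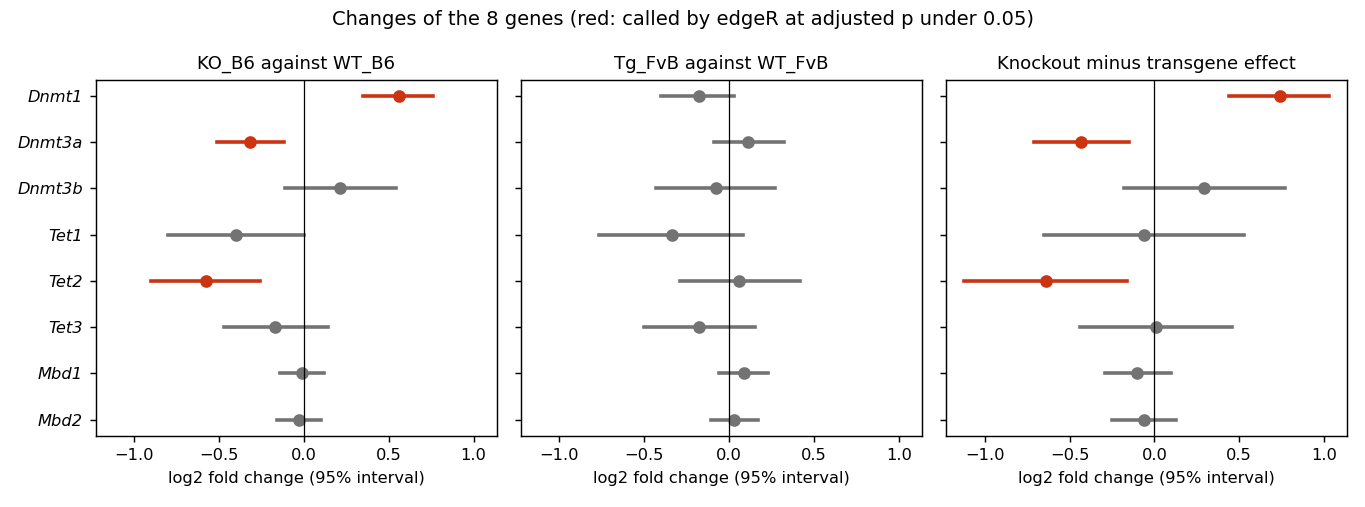
Log2 fold change of the 8 genes with 95% intervals (horizontal axes) in the knockout comparison, the transgene comparison and their difference, with red marking edgeR adjusted p under 0.05. Dnmt1, Dnmt3a and Tet2 are red in the knockout and in the difference, and no gene is red in the transgene.

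The wild-type groups of the 2 backgrounds differed in Dnmt1, Dnmt3a and Tet2 as well. Relative to WT_B6, WT_FvB was higher in Dnmt1 (log2 0.48, SE 0.11, interval 0.24 to 0.72, edgeR adjusted p = 0.00296) and lower in Dnmt3a (log2 -0.65, SE 0.11, interval -0.88 to -0.42, adjusted p = 0.000356) and in Tet2 (log2 -0.72, SE 0.19, interval -1.12 to -0.33, adjusted p = 0.00529). That is 1 of 8 higher and 2 of 8 lower, where 25.4% of all genes tested were higher and 23.5% lower (48.9% in all), and 78.3% of all genes did not overlap between these groups. None of the 3 passed with near-identical libraries summed, in edgeR (adjusted p = 0.266, 0.158 and 0.245), and without WT_FvB 1 the Tet2 difference was -0.65 and did not pass (adjusted p = 0.0588). For the other 5 genes the log2 difference ran from -0.13 (Tet1) to 0.19 (Dnmt3b) and did not pass. Side by side, Dnmt1 changed by 0.56 in the knockout and 0.48 between backgrounds, Dnmt3a by -0.32 and -0.65, and Tet2 by -0.58 and -0.72. Both comparisons subtract the same 3 near-identical WT_B6 libraries, so the likeness of those values is no independent observation: WT_B6 was the lowest of the 4 groups in mean Dnmt1 and the highest in mean Dnmt3a and Tet2. Library WT_B6 1 and WT_FvB 2 carry the same litter and embryo numbers in the labels, and litter 844 appears on both backgrounds.

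Other genes of the pathway were counted in lists by role. Of 12 partners of the methyltransferases, 10 were tested in the knockout comparison, and 8 rose and 0 fell, with a median log2 change of 0.41. Of all genes tested, 24.8% rose and 20.9% fell in that comparison. Uhrf1, which brings Dnmt1 to hemimethylated DNA, was 149, 150 and 157 CPM in WT_B6 in order of size and 246 to 286 CPM in KO_B6 (log2 0.81, SE 0.097, edgeR adjusted p = 2.78e-05). Hells, a chromatin remodeller needed for DNA methylation, rose by 0.84 on the log2 scale, and its activator Cdca7 by 1.01 and the Cdca7 paralogue Cdca7l by 0.97. In the transgene comparison 0 of the 10 passed in edgeR or DESeq2 (2 at unadjusted p under 0.05 in each), with a median of -0.05, and Uhrf1 was at -0.17 (adjusted p = 0.386). With near-identical libraries summed, 0 of the 10 passed in edgeR in the knockout (5 at unadjusted p under 0.05), at a median of 0.40.

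Genes of DNA replication rose alongside Dnmt1 and Uhrf1. All 23 of a list of 23 passed upward in the knockout (median log2 0.67; Mcm6 0.81, Pcna 0.67), 21 of 23 were higher in WT_FvB than in WT_B6, and 0 of 23 passed in the transgene in edgeR or DESeq2 (5 at unadjusted p under 0.05 in each; edgeR median -0.18). Their summed level was 2200 to 2250 CPM in WT_B6, 3140 to 3700 in KO_B6, 3300 in WT_FvB and 2460 to 3420 in Tg_FvB. With near-identical libraries summed, 0 of the 23 passed in edgeR in the knockout (20 at unadjusted p under 0.05), at a median of 0.60. Of 8 astrocyte markers 5 were lower in the knockout, with a median log2 change of -1.05 and a summed level of 2430 to 2490 CPM in WT_B6 and 997 to 1230 in KO_B6. Within that sum, mean Apoe was 1410 CPM in WT_B6 and 278 CPM in KO_B6. The means of Slc1a2 (197 and 215 CPM) and Sparcl1 (45.3 and 94.9 CPM) were higher in KO_B6. Between wild types 5 of 8 astrocyte markers were higher in WT_FvB, the same way as replication, and in the transgene 4 of 8 were lower. Of 12 neural stem markers, 7 were lower and 2 higher in the knockout. Of all genes tested, 24.8% were higher and 20.9% lower in the knockout. The shares were 25.4% and 23.5% in WT_FvB against WT_B6, and 0.688% and 1.17% in the transgene. The part of the replication and marker lists in the Dnmt1, Dnmt3a and Tet2 differences was not tested.

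Of 14 partners of demethylation, 3 rose and 4 fell in the knockout, with a median of 0.03, and 0 passed in edgeR with near-identical libraries summed (3 at unadjusted p under 0.05). Of all genes tested 24.8% rose and 20.9% fell, so this share is near the background. Cxxc4, which binds Tet2, fell by 0.78 on the log2 scale, and the stress-response gene Gadd45g fell by 0.75. The base excision repair genes Apex1 and Xrcc1 rose by 0.43 and 0.41. The glycosylase gene Mbd4 was at 0.19 and did not pass (adjusted p = 0.0654). In the transgene 0 of the 14 passed in edgeR (7 at unadjusted p under 0.05), and DESeq2 called 3. Of all 15261 genes tested in edgeR, 2793 had an unadjusted p under 0.05 in that comparison. DESeq2 called 356 higher and 368 lower there, of 15394 genes.

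The glycosylase gene Tdg, which excises oxidised 5-methylcytosine, could not be measured alone. Its processed copy Tdg-ps is 98.7% identical over 2968 bases and had group means of 12.4 to 14.2 CPM. A second copy, Gm9855, is 99.2% identical over 1194 bases, and Tdg took 81.1% to 82.3% of the summed CPM of Tdg and Gm9855 in all 7 C57Bl/6 libraries, 10.1% to 16.9% in 7 of the 8 FVB/BALB/c libraries and 50.4% in Tg_FvB 5. The sum of the pair was 107 to 123 CPM and 108 to 145 CPM on the respective backgrounds. Tdg alone would have read as a log2 difference of -2.54 between the wild-type groups and Gm9855 as one of 2.50. This pair was singled out after its values were seen.

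Of 10 other readers, 5 fell and 2 rose in the knockout, with a median of -0.15, where 20.9% and 24.8% of all genes tested did. In edgeR 0 of the 10 passed with near-identical libraries summed (2 at unadjusted p under 0.05). The zinc finger readers Zbtb4 and Zbtb38 fell by 0.59 and 0.43 on the log2 scale. Mbd5 fell by 0.50, and Mbd3, a NuRD subunit, rose by 0.20 (adjusted p = 0.0183 in edgeR). Of the 11 partners of Mbd2 in NuRD, 3 rose and 2 fell, near the 45.8% of all genes that passed, and 0 passed in edgeR with near-identical libraries summed (3 at unadjusted p under 0.05). Rbbp7 and Gatad2a rose by 0.45 and 0.44 and Gatad2b fell by 0.40, while the remodeller Chd3 fell by 0.80 in the knockout and rose by 0.79 in the transgene (adjusted p = 0.0423 in edgeR). Chd3 was the 1 gene of that list that passed in the transgene, and that call was lost in 9 of the settings counted for this list. It was lost with only the groups compared, litter as a covariate or near-identical libraries summed. It was also lost without Tg_FvB 5 and 6, and without WT_B6 1, 2 or 4 or KO_B6 2 or 3. Fits that left out 1 WT_FvB library or 1 Tg_FvB library are not reported here for Chd3.

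Of 11 genes that supply the methyl donor S-adenosylmethionine, 10 were tested, and 5 rose and 2 fell in the knockout, with a median of 0.22, against 24.8% and 20.9% of all genes tested. Once near-identical libraries were summed, 0 of the 10 passed in edgeR (5 at unadjusted p under 0.05). Mat2a, which makes S-adenosylmethionine, rose by 0.82, and Shmt1 and Mtrr, of the folate and methionine cycles, rose by 1.19 and 0.75. Cbs, which draws homocysteine out of the cycle, was lower in the knockout at -0.72 and in the transgene at -0.36 (edgeR adjusted p = 0.0448). The transgene call of Cbs was lost in at least 8 of the 9 settings named for Chd3. It was also lost when either WT_FvB library was left out. Of 24 germline genes that DNA methylation is known to silence, only 4 had enough counts to be tested. Brdt fell by 0.87 in the knockout and the other 3 did not pass. No germline gene passed in edgeR with near-identical libraries summed (1 at unadjusted p under 0.05), and the summed level of the 24 was 29.2 to 30.5 CPM in WT_B6 and 16 to 26.7 CPM in KO_B6.

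**Figure D5:**
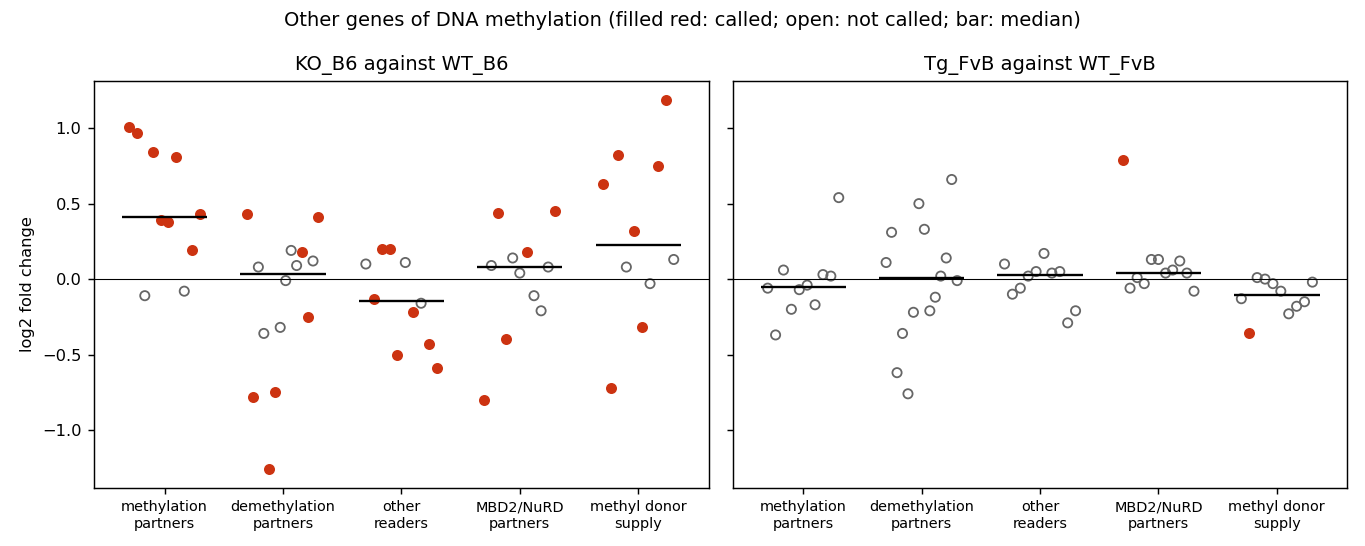
Log2 fold change (vertical axis) of each tested gene in 5 lists of other DNA methylation genes, in the knockout (left) and the transgene (right), filled where edgeR adjusted p was under 0.05 and with a bar at the list median. The methyltransferase partners lie mostly above 0 in the knockout, and 1 gene each of the NuRD and methyl donor lists is filled in the transgene.

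The genes whose log2 CPM most resembled each member over the 15 libraries are given as a description, since libraries share groups. For Dnmt1 they were the ribosome maturation factor gene Mrto4 (Pearson r = 0.982), the separase gene Espl1 (0.980) and the replicative helicase gene Mcm7 (0.978). For Dnmt3a they were Igsf9b (0.986), Fam171a2 (0.981) and Stox2 (0.981). For Tet1 they were the ciliary transcription factor gene Rfx3 (0.973), the kinase gene Taok1 (0.955) and Med13l (0.945), for Tet2 Zmynd8 (0.945), Foxn3 (0.939) and Thsd7a (0.938), and for Tet3 the deubiquitinase gene Usp9x (0.957), Soga1 (0.948) and Usf3 (0.931). Dnmt3b, with the fewest counts, had the weakest best match (Rccd1, 0.832). Mbd1 was closest to Fndc5 (0.916) and Mbd2 to Zfp428 (0.922).

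Annotated antisense genes overlap Dnmt3a, Dnmt3b, Tet2 and Tet3, and the library kit's strand handling in counting is not given in the sources used here. Where they had rows, the antisense genes were low: Dnmt3aos reached at most 0.048 CPM and B230319C09Rik, opposite Tet3, at most 0.319 CPM.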

How the data were processed

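RNA of 15 neural stem and progenitor cell cultures was sequenced as paired reads of 66 bases, per the labels. The authors deposited 1 table per library with raw read counts per gene and an exonic length column in bases (from featureCounts); the tool names featureCounts and bcl2fastq and the build mm10 come from the submitters' processing notes, and the aligner is not given in the sources used here. Entries without a gene symbol (917, holding 0.45% to 0.545% of counts) were left out of totals and tests. All 15 libraries were fitted together in edgeR 4.0.16 (R 4.3.3) with TMM scaling, 1 coefficient per group and a minimum count of 10 in filterByExpr, which left 15261 of 26263 genes. P-values are from the quasi-likelihood F-test with Benjamini-Hochberg adjustment over all genes tested, called at 0.05. Intervals (95%) use edgeR's standard error and a t quantile. CPM was scaled by TMM factors over named-gene totals. The depth, 12336303 to 62819028 counts, limits the precision of low genes such as Dnmt3b. Alternatives were RLE size factors, no low-count filter, DESeq2 1.42.0, a fit of only the groups compared, litter as a covariate, the replicate number as a block, each library left out, Tg_FvB 5 and 6 left out, and near-identical libraries summed (linked by a pairwise variation under 0.05; Tg_FvB 1 and 3, at 0.0503, were joined through Tg_FvB 2). The scripts' fits were tested on simulated data. Coordinates are GENCODE M21 (GRCm38), and promoters are RefSeq windows of GRCm38.p6. Genes named beside the 8 were up to 4 called genes of each list by size of change with a mean of at least 5 CPM, a few fixed genes, and the 3 most correlated genes of each member. Members, lists and tests were chosen with earlier results of these data known. Some genes that these rules name are not reported here.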

Additional observations from a re-analysis of the deposited data

Results flagged for a closer look

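In Tg_FvB, 4 values lay far from the other 5 libraries of the group, judged by the gap to the nearest library as a share of the group's range. Dnmt1 was 379.6 CPM in Tg_FvB 4, with the gap at 0.652 of the range. Dnmt3a was 151.6 CPM in Tg_FvB 5 (0.804). Tet3 was 91 CPM in Tg_FvB 6 (0.665), and Mbd2 was 59.47 CPM in the same library (0.636). Chance would give such a gap in about 1 of 20 groups if all libraries were independent and a single gene were examined. Several genes were examined, and some Tg_FvB libraries are near-identical, so that rate does not hold for this group. How often chance gives such gaps here was not tested. Tg_FvB 4 was the shallowest library, and Tg_FvB 5 and 6 have count columns with wild-type names; the part of either in these values was not tested.

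The knockout and transgene effects differed, by a test of the difference, for Dnmt1 (0.74 on the log2 scale), Dnmt3a (-0.43) and Tet2 (-0.64). These 3 differences set the C57Bl/6 pair against the FVB/BALB/c pair.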

How the results depend on the processing

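With near-identical libraries summed, edgeR called 0 members in the knockout, transgene, difference and wild-type comparisons (3, 0, 3 and 3 with all libraries separate), and of all genes 5, 0, 0 and 0 (3464, 471, 2803 and 3706 at unadjusted p under 0.05). In the knockout, Dnmt1, Dnmt3a and Tet2 passed under the other 22 alternatives. In the transgene the count of 283 genes (105 higher, 178 lower) became 724 with DESeq2 (356 higher, 368 lower), 10 with only the groups compared, 0 with litter as a covariate (1511 at unadjusted p under 0.05), 638 without Tg_FvB 5 and 6, and 2 to 1763 with 1 library left out: 2 without either WT_FvB library and 1763 without Tg_FvB 4, with 0 to 1 members called. In the difference, 1 to 3 members and 3598 to 6760 genes were called with 1 library left out, the fewest without WT_FvB 1.

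Same-numbered libraries of different groups had correlations of -0.02 to 0.08 in their deviations from the group means. The wild-type libraries in these pairs were near-identical within their group, so these values cannot show whether the numbers pair the samples. With the replicate number as a block the transgene count was 6460 genes and 3 members (Dnmt1, Tet1 and Tet3); that fit rests on replicates 1 and 2, which are near-identical within each group. The block kept the 3 knockout calls and added Tet1.

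Directions turned only for values that passed in no setting, and the cause was not tested. With 1 library left out, Mbd2 ran from -0.08 to 0 in the knockout and from -0.01 to 0.04 in the transgene (-0.01 without Tg_FvB 5 and 6), and Tet2 in the transgene from -0.04 to 0.14 (-0.06 with litter, -0.07 with the block). In the difference, Tet1 ran from -0.19 to 0.02 and Tet3 from -0.09 to 0.11; Tet3 there was 0 with RLE factors or DESeq2, -0.04 with the block, -0.09 without Tg_FvB 5 and 6, and -0.03 with near-identical libraries summed. Tet3 between wild types ran from -0.05 to 0.01. Dnmt3b, at 3.52 to 5.39 CPM, is the member that depth limits most.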
